A study of Bos taurus with 40 samples.

Results

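Ooplasm biopsies, small samples of cytoplasm drawn from a cattle oocyte (Bos taurus), were set against whole oocytes carrying the same number, to ask which abundant transcripts are unevenly present in the biopsy. The comparison comprised 8 of the 40 samples of the series: biopsies 2, 3, 6 and 16 and whole oocytes 2, 3, 6 and 16, chosen and paired by the number in their titles. The labels give every one of the 8 the genotype Diploid, name only the tissue and ploidy under treatment, and give poly(A) RNA as the material. No source used here gives the animal, the maturation stage of these oocytes, the volume drawn, or whether the whole-oocyte library was made after the biopsy. The other samples were biopsies, cumulus cells, granulosa cells and first polar bodies from oocytes of 2 fates, blastocyst formation and arrest at cleavage. Of these, 8 biopsies (called fate biopsies below) and 8 cumulus cell samples were used for reference levels only.

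A growing oocyte fills its cytoplasm with messenger RNAs that are stored for meiosis and for the first divisions of the embryo, before the embryo's own genes are active. Much of this store is held silent with short poly(A) tails and is then translated or destroyed in a timed order during maturation. A biopsy can stand for its oocyte only for those transcripts that are spread through the cytoplasm, because a sample taken at a single site could miss RNAs held in the nucleus, at the cortex or in granules.

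Each value is a count per row of the deposited table, a row being a gene model that carries a gene symbol, an Ensembl identifier, a NONCODE identifier or a LOC identifier. The 8 libraries held 13442089 to 23790073 counts. Levels are given as CPM, counts per 1000000 counts of the library, scaled by edgeR's trimmed mean of M values (TMM), with scaling factors from 0.756 in oocyte 3 to 1.18 in oocyte 2. The 10 most abundant rows took 6.18% to 7.22% of the counts of a biopsy and 6.49% to 9.90% of those of an oocyte, and oocyte 3 had the highest share. The oocyte label was checked with H1FOO, the oocyte linker histone, which stood at 456 to 1426 CPM in the 8 libraries and had a median of 0 in cumulus cells. A list of 41 symbols of secreted and maternal-effect oocyte genes matched only 2 rows, so this check rests on H1FOO alone. Symbols of 23 cumulus and granulosa markers, 6 theca and stroma markers and 6 blood and immune markers matched 0 rows, so these cell types could not be checked by name.

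Every abundant transcript of the oocyte was also found in its biopsy. Abundant rows were those with a mean of 100 CPM or more over the 8 libraries. There were 2107 of them, 11.4% of the 18540 rows tested, and they took 68.4% to 78.5% of each library's counts. All 2107 were detected, with 5 counts or more, in each of the 8 libraries. Loss began at lower levels. Rows at 30 CPM or more in an oocyte were detected in its own biopsy in 100% of cases in every pair. At 10 to 30 CPM the share was 99.8% ± 0.125 (SD, n = 4 pairs), with 3 to 11 rows missed per pair. It was 95.7% ± 0.865 at 3 to 10 CPM and 77.5% ± 4.23 at 1 to 3 CPM, where 738 to 1213 rows were missed. In the other direction, rows at 1 to 3 CPM in a biopsy were found in its oocyte in 83.6% ± 4.93 of cases and rows at 3 to 10 CPM in 97.3% ± 1.26. At 10 to 30 CPM 99.9% ± 0.0632 were found, and from 30 CPM upward 100%. At 1 to 3 CPM the pairs differed: oocyte rows were found in the biopsy less often than biopsy rows in the oocyte in pair 2 (71.4% against 88.7%) and pair 16 (78.4% against 86.6%), about as often in pair 6 (80.7% against 81.3%) and more often in pair 3 (79.7% against 77.8%). Each biopsy also had fewer counts than its oocyte, from 13442089 against 17221668 in pair 2 to 17830057 against 17945503 in pair 16, and its part in these shares by level was not tested.

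**Figure D1:**
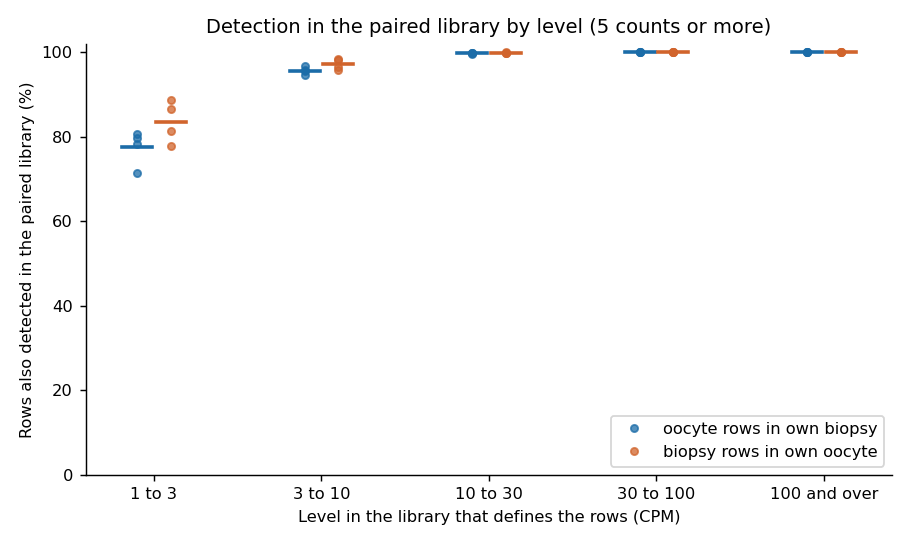
Share of rows detected (5 counts or more) in the paired library, in percent, by level in the library that defines the rows. Points are the 4 pairs and bars their means. Detection of oocyte rows in the biopsy rises from 77.5% at 1 to 3 CPM to 100% at 30 CPM and over.

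With edgeR no abundant transcript was called unevenly present. Its quasi-likelihood test with the pairs as a block called 0 of 18540 rows (0.0%) at an adjusted p under 0.05, and 0 of the 2107 abundant rows (0.0%). The smallest adjusted p was 0.339. At an unadjusted p under 0.05 there were 1262 rows (6.81%), 524 higher in biopsies (2.83%) and 738 lower (3.98%). Among abundant rows there were 118 (5.60%), 51 of them higher (2.42%) and 67 lower (3.18%), each share below that of all rows. Other tools differed. DESeq2 with the same block called 353 of 37247 rows, 15160 of which had no adjusted p. Of the 353, 90 were higher and 263 lower, 238 lay under 10 CPM and 12 were among the 2107 abundant rows. When edgeR was run on the 37247 unfiltered rows it called 118, 9 of them among the 2107 abundant rows. limma-voom called 0, with 1561 rows at an unadjusted p under 0.05.

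A missed threshold does not show that a transcript is evenly present, so the 95% interval of each ratio was read against a 2-fold bound. Of the 2107 abundant rows, 1451 (68.9%) had an interval lying wholly within 2-fold of equality. For 654 the interval crossed the bound, for 0 it lay wholly beyond it, and 2 had no interval. The estimate itself was more than 2-fold higher in biopsies for 15 abundant rows and more than 2-fold lower for 12. The interval reached a median of 0.60 log2 units to either side of the estimate. The share of rows shown to lie within 2-fold depended on level: 0.0493% at 1 to 3 CPM, 0.389% at 3 to 10, 21.2% at 10 to 30, 58.5% at 30 to 100, 70.6% at 100 to 300 and 64.6% at 300 CPM and over. Of the 80 abundant rows with a name, 51 lay within 2-fold and 29 crossed the bound.

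**Figure D2:**
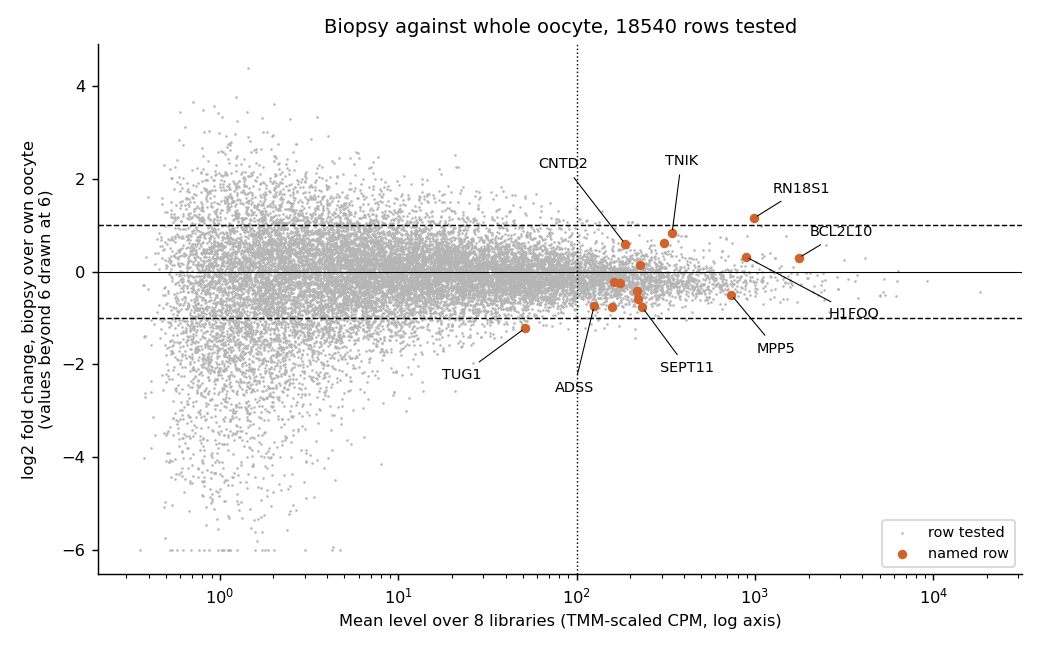
log2 fold change of biopsy over own oocyte against mean level over the 8 libraries (log axis) for the 18540 rows tested. Orange points are named rows described in the text, dashed lines mark 2-fold and the dotted line marks 100 CPM. Scatter narrows with level, and 15 abundant rows lie above and 12 below the 2-fold lines.

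The 4 pairs did not lean the same way. Of the abundant rows, 65.6% were higher in the biopsy in pair 2, 25.3% in pair 3, 27.3% in pair 6 and 48.8% in pair 16. The median log2 ratio was 0.19, -0.47, -0.35 and -0.01 in the same order. Pair 16 was the closest, with 98.2% of abundant rows within 2-fold, followed by pair 2 with 93.5%, pair 6 with 85.3% and pair 3 with 75.2%. These medians followed the scaling: with library totals in place of TMM they were 0.05, 0.02, -0.06 and -0.04, and pair 3 still had the lowest share within 2-fold, 83.5%. Over all rows tested the median log2 fold change was -0.11 with TMM and 0.04 with library totals. A fitted log2 fold change of the named rows below moves by about this shift when totals are used. Values of single pairs move by amounts that differ between pairs, as the medians of the pairs do.

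**Figure D3:**
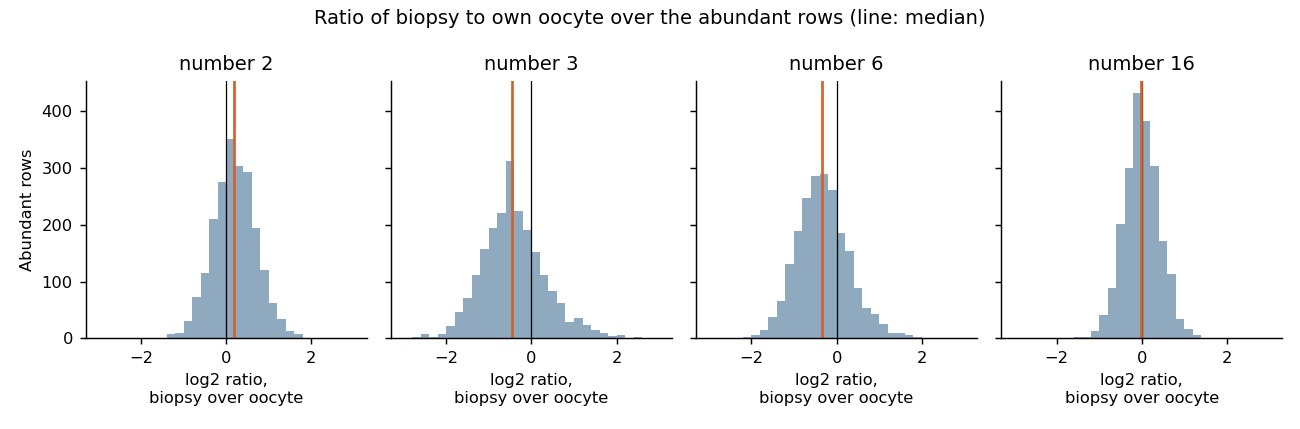
Number of abundant rows by log2 ratio of biopsy over own oocyte (TMM-scaled) in each pair. The orange line is the median, at 0.19, -0.47, -0.35 and -0.01 for numbers 2, 3, 6 and 16, and pair 16 has the narrowest spread.

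The row-by-row pattern of the ratios differed between pairs as well. Across the 2107 abundant rows, which share their libraries and are not independent, the log2 ratios of pairs 3 and 6 had a Pearson correlation of 0.658 and the same sign in 79.1% of rows. Pairs 3 and 16 had 0.342 and pairs 6 and 16 had 0.227. Pair 2 went the other way, with -0.399 against pair 3, -0.221 against pair 6 and -0.188 against pair 16. As a description, a transcript with a low ratio in pair 3 beside the other abundant rows thus tended to have a low ratio in pair 6 and a high one in pair 2. The shares of the same sign were taken with TMM and depend on the median ratio of each pair, which followed the scaling.

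Few abundant rows lay on the same side in every pair. The biopsy was above its oocyte in 4 of 4 pairs for 105 abundant rows (4.98%) and below in 4 of 4 for 159 (7.55%), beside 7.32% and 8.83% of all rows tested. With library totals the split was 164 above and 132 below. With a pair left out fewer pairs have to agree, so the counts rose and do not compare with those over 4 pairs. Without pair 2, 3, 6 or 16 in turn, the count below was 781, 204, 199 and 315. The count above was 203, 163, 154 and 152 in the same order. The 4 biopsies and 4 oocytes did not overlap for 23 abundant rows higher in biopsies (1.09%) and 32 lower (1.52%), beside 2.18% and 2.04% of all rows. Among the 80 named abundant rows 4 stood above in every pair and 7 below.

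TNIK, a kinase of the Wnt pathway, had the largest ratio among the 4 named rows above in every pair. For numbers 2, 3, 6 and 16 the biopsies held 284, 630, 428 and 410 CPM and the oocytes 176, 381, 219 and 216. Each biopsy was well above its own oocyte, although the groups overlapped, oocyte 3 lying above biopsy 2. The fold change was 1.77 (log2 0.83, SE 0.241, 95% interval 0.29 to 1.36, edgeR unadjusted p = 0.00571, adjusted p = 0.646). SELENOH, a nuclear selenoprotein with redox activity, stood at 128, 578, 444 and 380 CPM in biopsies against 95.8, 256, 271 and 332 in oocytes (log2 0.62, 0.04 to 1.20). Pair 2 was low on both sides, and pair 3 alone exceeded 2-fold. CNTD2, a cyclin-like protein, stood at 170, 336, 192 and 211 CPM against 138, 164, 109 and 180 (log2 0.59, 0.03 to 1.16). WDYHV1, an amidase acting on N-terminal glutamine, was nearly level, at 221 to 253 CPM against 202 to 232 (log2 0.15, -0.37 to 0.66).

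SEPT11, a filament-forming GTPase of the septin family, had the lowest ratio of the named rows below in every pair. The oocytes held 234, 509, 254 and 204 CPM and the biopsies 192, 190, 135 and 148. The groups did not overlap, and oocyte 3 stood apart from the other oocytes. The log2 fold change was -0.77 (SE 0.272, -1.37 to -0.17, edgeR unadjusted p = 0.0168, adjusted p = 0.674). ADSS, which makes the precursor of AMP, stood at 168, 93.9, 65.9 and 66.0 CPM in biopsies against 178, 155, 158 and 121 in oocytes (log2 -0.74, -1.32 to -0.15). Pair 2 was nearly level while the other three biopsies were clearly lower. NELL1, a secreted EGF-like protein, stood at 224, 97.4, 179 and 206 CPM against 401, 217, 223 and 212 (log2 -0.59, -1.18 to 0.01), with oocyte 2 apart from the others.

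The remaining named rows below in every pair differed less. MPP5, a scaffold of the Crumbs polarity complex, stood at 672, 615, 545 and 588 CPM in biopsies and 697, 1047, 1011 and 718 in oocytes (log2 -0.50, -1.09 to 0.09). VAMP3, a vesicle SNARE of membrane recycling, was almost the same in the 4 biopsies, at 179 to 191 CPM, and lay at 202 to 286 CPM in oocytes (log2 -0.42, -0.95 to 0.11). Neither gene's groups overlapped, and both intervals included equality. CXHXorf56 (log2 -0.25) and COL4A3BP, the ceramide transfer protein (log2 -0.23), had intervals within 2-fold. Biopsy 3 stood apart for COL4A3BP, at 106 CPM against 161 to 165 in the other biopsies. With library totals the lowest biopsy lay above the lowest oocyte for both genes. The values were 148 against 133 CPM for CXHXorf56 and 111 against 91.1 for COL4A3BP. Neither was then below in every pair.

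**Figure D4:**
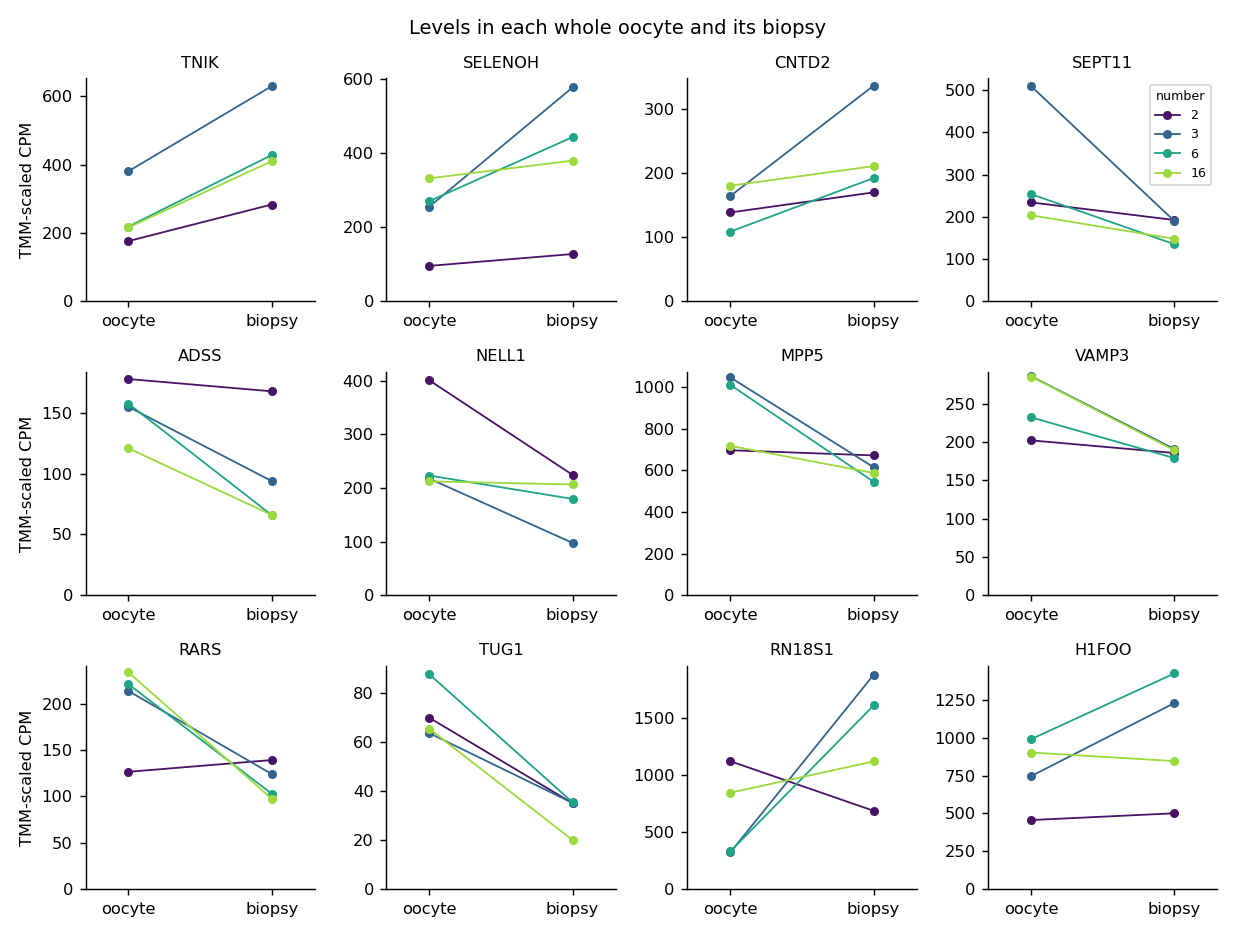
TMM-scaled CPM of 12 named rows in each whole oocyte and its own biopsy, joined by number (colours 2, 3, 6 and 16), each panel starting at 0. TNIK, SELENOH and CNTD2 slope up and SEPT11, ADSS, NELL1, MPP5, VAMP3 and TUG1 slope down in all 4 pairs, while RARS, RN18S1 and H1FOO cross.

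Of the rows without a name here, the 2 of smallest p in each direction among those on the same side in every pair had larger ratios. ENSBTAG00000005191 stood at 149, 132, 183 and 156 CPM in biopsies against 76.8, 45.5, 84.5 and 89.5 in oocytes, with no overlap (log2 1.10, 0.55 to 1.65, edgeR adjusted p = 0.628). ENSBTAG00000008621 stood at 93.9, 200, 156 and 121 CPM against 67.1, 63.3, 55.1 and 65.7, again with no overlap (log2 1.13, 0.52 to 1.75). Lower in biopsies was ENSBTAG00000008619, at 64.4, 66.6, 163 and 175 CPM against 162, 280, 510 and 285 (log2 -1.44, -2.07 to -0.81). ENSBTAG00000019390 stood at 137, 64.6, 69.2 and 113 CPM against 206, 171, 232 and 191 (log2 -1.12, -1.73 to -0.51). All 4 passed with DESeq2, with adjusted p-values of 0.0157, 0.0254, 0.00156 and 0.0269 in this order, and 0 of the 4 passed with edgeR after filtering.

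The 8 fate biopsies, counted in a separate table and scaled by library totals alone, give levels for the same rows in libraries that the choice did not use. TNIK lay at 266 to 544 CPM there (median 489), beside 195 to 288 in the whole oocytes on the same scale. ENSBTAG00000005191 lay at 110 to 274 CPM beside 34.3 to 91.4, and ENSBTAG00000008621 at 154 to 237 beside 47.8 to 78.5. ENSBTAG00000008619 lay at 96.3 to 188 CPM beside 190 to 453 in oocytes, and ENSBTAG00000019390 at 63.9 to 171 beside 129 to 241. SEPT11 lay at 171 to 399 CPM in fate biopsies beside 208 to 384 in oocytes. MPP5 lay at 388 to 909 CPM beside 733 to 898, and VAMP3 at 156 to 229 beside 206 to 291. The SEPT11 range in fate biopsies spanned that of the oocytes, while the first 2 unnamed rows stayed above it. Both biopsy sets are read against the same 4 oocytes, and the tables were normalized separately, so no test was made.

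The most abundant named transcripts included those of oocyte genes and chromatin proteins, and most of their ratios were small beside the spread of the oocytes. BCL2L10, a BCL2 family protein abundant in oocytes, stood at 1756, 2383, 1696 and 1579 CPM in biopsies and at 1115, 3165, 1356 and 1038 in oocytes (log2 0.30, -0.34 to 0.93). Oocyte 3 was far above the other oocytes, and its biopsy was the highest biopsy. H1FOO stood at 500, 1230, 1426 and 846 CPM against 456, 747, 991 and 902 (log2 0.32, -0.27 to 0.91), low in both members of pair 2. MAD2L1, of the spindle checkpoint, stood at 843, 518, 824 and 942 CPM against 381, 1483, 1189 and 843 (log2 -0.19, -1.07 to 0.70), so that pairs 2 and 3 went opposite ways. HMGN2, a nucleosome-binding protein, had a mean of 697 ± 64.7 CPM in biopsies and 756 ± 302 in oocytes (log2 -0.04, -0.66 to 0.57). PCBP1, a poly(C)-binding protein, had 748 ± 152 against 555 ± 148 CPM (log2 0.45, -0.20 to 1.11). TDRD15, a Tudor domain protein, stood at 539 to 764 CPM in biopsies and at 575 to 2127 in oocytes (log2 -0.60, -1.31 to 0.11).

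Of the genes that store maternal messages or change their tails, 6 rows were found and 0 were called by edgeR, with 0 lying on the same side in every pair and a median log2 fold change of -0.14 beside -0.11 over all rows. PAPD7, a noncanonical poly(A) polymerase, stood at 114, 176, 170 and 167 CPM in biopsies against 126, 77.7, 100 and 93.2 in oocytes (log2 0.66, 0.05 to 1.27, edgeR adjusted p = 0.706). Biopsy 2 stood apart from the other biopsies and was the only one below its oocyte. PAPD4, the GLD-2 polymerase that lengthens tails in the cytoplasm, stood at 343, 184, 265 and 339 CPM against 253, 384, 575 and 273 (log2 -0.36, -1.09 to 0.38). ZCCHC6, a uridyltransferase that marks short-tailed messages, stood at 86.1, 110, 62.8 and 78.4 CPM against 78.4, 197, 156 and 92.3 (log2 -0.56, -1.20 to 0.08). Its relative ZCCHC11 was nearer level (log2 -0.14, -0.71 to 0.44). FAM46B, another cytoplasmic poly(A) polymerase, was outside the fixed lists and was picked after its values were seen: its log2 ratio was -0.07, 2.08, 1.61 and 0.64 in pairs 2, 3, 6 and 16 (fitted 1.07, 0.28 to 1.86). In this group, pair 2 differed from pairs 3 and 6 in the sign of the ratio for PAPD4, PAPD7, ZCCHC6 and FAM46B. This was not particular to these genes: over all abundant rows, with TMM, pair 2 shared its sign with pair 3 in 30.5% and with pair 6 in 35.4%.

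Histone transcripts, many of which end in a stem-loop instead of a poly(A) tail, had ratios centred near equality. Of 75 histone rows 45 were tested, 0 were called by edgeR, 2 stood above in every pair and 0 below, and the median was -0.02. H2AFX, the H2A.X variant that marks DNA breaks, was low in level and 1 of the 2 above in every pair, at 9.13, 67.7, 25.1 and 13.2 CPM in biopsies against 4.77, 10.8, 4.62 and 8.68 in oocytes (log2 1.66, 0.66 to 2.66, edgeR adjusted p = 0.628). DESeq2 called it (adjusted p = 0.0196). H3F3B and H3F3A, which encode the replacement histone H3.3, had log2 ratios of -0.17 and -0.03. The summed histone level, in CPM of library totals, was 3360, 5481, 5431 and 4975 in biopsies and 3858, 3746, 4308 and 5414 in oocytes, higher in the biopsy in 2 of 4 pairs (exact sign-flip permutation p = 0.5). HIST1H2AK and HIST2H2AA4 had nearly the same level in every library, so the list and its sum may count some reads more than once. Of the 8 abundant histone rows all but H3F3B had their lowest biopsy in biopsy 2: HIST1H2AH stood at 31.7 CPM there against 117 to 172 in the other biopsies, and H4C1 at 46.1 against 126 to 155. Rows under the abundance bound did not all follow, since H4C13 was lowest in biopsy 6, at 51.4 CPM against 72.7 in biopsy 2.

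RN18S1, the 18S ribosomal RNA row, had the highest ratio among the named abundant rows. It stood at 687, 1882, 1613 and 1121 CPM in biopsies and at 1123, 321, 330 and 846 in oocytes. Pairs 3 and 6 were strongly higher in the biopsy, pair 16 slightly, and pair 2 was lower. The log2 fold change was 1.16 (SE 0.525, 0.00 to 2.31, edgeR unadjusted p = 0.0501, adjusted p = 0.716). The row measures ribosomal RNA that remained in libraries labelled as poly(A) RNA. Its ratio increased over pairs 2, 16, 6 and 3, the order in which the TMM-scaled median ratio of the abundant rows decreased. With library totals these medians were 0.05, -0.04, -0.06 and 0.02 in that order of pairs, so the match did not hold. Whether ribosomal RNA bears on the ratios of other rows was not tested. The fate biopsies lay at 1256 to 2102 CPM in library totals, beside 733 to 1978 in the matched biopsies and 242 to 1314 in oocytes.

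The aminoacyl-tRNA synthetases, which charge tRNAs for translation, gave 17 tested rows of 18, with 0 called by edgeR, 2 above and 1 below in every pair and a median of -0.03. RARS, for arginine, stood at 139, 124, 103 and 97.2 CPM in biopsies and 126, 214, 221 and 234 in oocytes (log2 -0.76, -1.40 to -0.12, edgeR adjusted p = 0.677). Biopsy 2 was level with its oocyte and the other three were clearly lower. EPRS, for glutamate and proline, was closer (log2 -0.20, -0.73 to 0.32). WARS, for tryptophan and under the abundance bound, went the other way and had the smallest p of the list. It stood at 19.2, 118, 77.5 and 67.6 CPM in biopsies and 19.8, 12.8, 15.97 and 31.3 in oocytes (log2 1.64, 0.58 to 2.71, edgeR unadjusted p = 0.00603, adjusted p = 0.646), and DESeq2 called it (adjusted p = 0.0245). The summed level of the synthetases was 892 ± 28.6 CPM in biopsies and 890 ± 89.0 in oocytes (exact sign-flip permutation p = 0.875, n = 4 pairs), a difference smaller than the spread between libraries.

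Zinc finger genes were mostly of low level, and 12 of the 42 tested had a positive ratio. Of 71 rows 42 were tested, 0 were called by edgeR, 0 stood above and 6 below in every pair, beside 7.32% and 8.83% of all rows. Their median was -0.56, or -0.41 with library totals, beside -0.11 and 0.04 over all rows. The list was chosen with its earlier result known, and members that passed the filter on low counts through the oocytes alone had to differ, so these counts are a description. ZNF569 stood at 25.9, 4.83, 10.2 and 13.8 CPM in biopsies and 47.4, 52.1, 23.1 and 28.6 in oocytes (log2 -1.58, -2.58 to -0.58, edgeR adjusted p = 0.646), and DESeq2 called it (adjusted p = 0.0315). The 4 abundant members were ZNF845 (log2 -0.34), ZNF280D (0.05), ZNF529 (-0.48) and ZNF77 (-0.59). ZNF280D stood at 106, 254, 199 and 205 CPM in biopsies and 76.8, 261, 225 and 213 in oocytes, so the members of each pair were close. Summed over the list, biopsies held 912, 1151, 1051 and 1190 CPM and oocytes 1095, 1240, 1196 and 1224, each biopsy below its oocyte (exact sign-flip permutation p = 0.125, the smallest that 4 pairs allow, and 0.171 unpaired).

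The long noncoding RNA list had 8 rows and 2 tested. TUG1, a nuclear and cytoplasmic long noncoding RNA, lay under the abundance bound and was added after its values were seen. It stood at 35.0, 35.1, 35.4 and 19.9 CPM in biopsies and at 69.9, 63.6, 87.7 and 65.4 in oocytes, with no overlap (log2 -1.22, -1.82 to -0.62, edgeR adjusted p = 0.628, DESeq2 adjusted p = 0.013). The fate biopsies lay at 30.5 to 67.7 CPM in library totals, beside 19.97 to 38.4 in the matched biopsies and 48.0 to 81.8 in oocytes, so their range overlapped both. SNHG3 went both ways, at 3.56, 4.92, 8.15 and 4.48 CPM in biopsies and 12.02, 2.01, 3.98 and 5.84 in oocytes (log2 0.07, -1.40 to 1.54). Most of the summed list was TUG1, so the sum is no separate evidence. It stood at 41.6, 44.4, 47.3 and 25.7 CPM in biopsies and 97.4, 50.3, 81.9 and 74.3 in oocytes (exact permutation p = 0.125 paired and 0.0286 unpaired, each the smallest possible).

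Among silencing and piRNA factors 6 rows were tested, 0 were called by edgeR and 0 lay on the same side in every pair (median -0.22). FAM208A, of the HUSH complex that silences retroelements, was close, at 168 to 189 CPM in biopsies and 141 to 258 in oocytes (log2 -0.17, -0.73 to 0.38), and KIAA1551 likewise (log2 -0.06, -0.72 to 0.59). MORC1, of germline transposon silencing, varied between biopsies, at 60.0, 12.1, 22.6 and 61.8 CPM, while the oocytes held 40.0 to 44.8. ATP5MD, a small subunit of mitochondrial ATP synthase and the abundant member of 3 respiratory chain rows, had 261 ± 22.1 CPM in biopsies and 319 ± 106 in oocytes (log2 -0.24, -0.85 to 0.38). The ribosomal protein row RPL31 had 70.2 to 117 CPM in biopsies and 43.4 to 85.8 in oocytes (log2 0.37, -0.32 to 1.07). SOHLH1, a transcription factor of early oocyte growth, was low in level and above in every pair (7.66 ± 3.95 against 3.41 ± 2.79 CPM, log2 1.44, 0.05 to 2.83, edgeR adjusted p = 0.716). Mitochondrially encoded RNAs matched 0 rows.

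The kinds of row had different medians at low level and similar ones among abundant rows. Of 3098 tested NONCODE rows, from a catalogue of long noncoding RNAs, 399 were below in every pair and 124 above, with a median of -0.35. Of 13014 Ensembl rows 1001 were below and 1090 above, with a median of -0.05. At 1 to 3 CPM the NONCODE median was -0.72 beside 0.00 for Ensembl rows, and 12.5% against 7.13% were below in every pair. Low rows that passed the filter on low counts through the oocytes or the biopsies alone had to differ, so these values are a description. The gap between the medians narrowed with level: at 30 to 100 CPM they were -0.18 and -0.07. Among abundant rows NONCODE stood at -0.10 (89 rows) and Ensembl at -0.16 (1862 rows). Pairs disagreed here too, since at 30 to 100 CPM the NONCODE median ratio was -0.23, -0.31 and -0.44 in pairs 2, 3 and 6 and 0.32 in pair 16. As a share of counts NONCODE rows took 6.85%, 4.56%, 6.04% and 6.96% in biopsies and 9.27%, 4.21%, 6.79% and 5.62% in oocytes (exact sign-flip permutation p = 0.75), and the mean difference of -0.367 percentage points became 0.316 without pair 2.

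Rows missing from every biopsy were rare and low. Of 17345 rows with 5 counts or more in every oocyte, 120 had fewer than 5 in every biopsy, the highest at a mean of 3.41 CPM in oocytes. They comprised 52 NONCODE, 41 Ensembl, 22 LOC and 5 symbol rows, and 50 had 0 counts in all biopsies. Some rows had the same or nearly the same counts, so the 120 may not all be separate transcripts and their sums may count reads more than once. PHETA1 and ENSBTAG00000052103 had equal counts in each library, and OR52I11 and ENSBTAG00000051808 nearly so. The reverse pattern held for 5 rows. The 120 rows summed to 175, 96.3, 124 and 106 CPM in oocytes 2, 3, 6 and 16 and to 2.60 to 6.32 CPM in biopsies. Having been chosen for absence from these biopsies, they were read in the 8 fate biopsies, where 11 (9.17%) were again below 5 counts in every library, 73 were detected in 1 to 4 and 36 in 5 or more. Of 4961 rows of the same level range that were found in a matched biopsy, 19 (0.383%) were below 5 counts in every fate biopsy. These 4961 were chosen for detection in a biopsy and had a higher median oocyte level (1.66 against 0.868 CPM). The shares are therefore a description and do not compare like with like. Oocyte 2 was the highest oocyte for 57 of the 120 rows and for 2674 of these 4961. The summed level of the 120 rows in fate biopsies was 60.1 to 151 CPM in library totals, so as a group they were present there.

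Named rows among these 120 differed in the fate biopsies. OR52I11, an olfactory receptor, had 0 counts in each biopsy and 26, 20, 15 and 19 in oocytes. With a floor of 3 counts per library, the mean CPM of the biopsies is at least 5.95-fold below that of the oocytes. OR52I11 reached at most 3 counts in a fate biopsy. ZNF597, a zinc finger gene, had 0 counts in each biopsy and 83, 132, 10 and 12 in oocytes. Its mean was at least 16.4-fold lower in biopsies, with most of the counts in oocytes 2 and 3. ZNF597 was detected in 3 of 8 fate biopsies, with up to 320 counts. ZNF484 had 2, 0, 2 and 0 counts against 60, 10, 32 and 23, and 2 fate biopsies detected it. ZBBX, PHETA1 and C18H16orf95, the other three with a symbol, were detected in 8, 7 and 6 fate biopsies. NONBTAG005188.2 had 0 counts in each biopsy and 36, 69, 100 and 62 in oocytes (mean at least 19.4-fold lower), with detection in 3 fate biopsies. These folds compare means and need not hold in each pair, and the floors cover counting error only.

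Transcripts of cumulus cells, which surround the oocyte and reach it by fine projections, were far below their cumulus level in every library and highest in oocyte 2. They were represented by 126 rows chosen in other libraries, with a mean of 100 CPM or more in cumulus cells and 1 CPM or less in fate biopsies. The choice used a low level in ooplasm biopsies, so a low level in the matched biopsies largely follows from it. Their summed level, in CPM of library totals, was 37110 to 40180 in cumulus cells, 41.6, 40.6, 44.5 and 39.2 in biopsies and 176, 30.5, 37.5 and 34.4 in oocytes. Oocyte 2 stood far above the rest, and the other oocytes lay below their own biopsies. The difference was -28.2 CPM over 4 pairs (exact sign-flip permutation p = 1) and 7.31 CPM without pair 2. In such bulk samples fewer attached cells and less RNA per cell cannot be told apart. Of the 126 rows 19 were tested, 0 were called by edgeR and the median was -0.40. Among the 120 rows absent from biopsies, 27 (22.5%) had a cumulus mean above their oocyte mean. The share was 45.5% of the 4961 rows of the same level range, whose median oocyte level was higher. The part of cumulus RNA in oocyte 2 in the ratios of pair 2 was not tested.

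In their abundant transcripts biopsies of different oocytes were on average more alike than whole oocytes were, although the ranges overlapped. On average 91.3% of abundant rows lay within 2-fold between 2 biopsies (86.0% to 97.3% over 6 pairings) and 80.9% between 2 oocytes (60.0% to 97.4%). A biopsy and its own oocyte shared 88.0% (75.2% to 98.2%), and a biopsy and another oocyte 84.7% (68.5% to 96.0% over 12). Over the 24 ways to assign oocytes to biopsies the one-sided exact permutation p of the own assignment was 0.0833. The smallest possible is 0.0417, so only the best assignment could have passed, and the test does not settle whether a biopsy is closest to its own oocyte. Biopsies 2 and 16 were closest to their own oocyte, and biopsies 3 and 6 were closest to oocyte 16. Oocyte 3 was the least like any biopsy, with 68.5% to 75.2%. Without number 3 the means were 92.8% for biopsies, 92.1% for own pairs and 85.04% for oocytes, the same order with smaller gaps. Without number 2 they were 93.7% for biopsies, 86.1% for own pairs, 83.4% for a biopsy and another oocyte and 87.25% for oocytes, which then stood above own pairs. With library totals they were 91.6% for biopsies, 91.8% for own pairs, 87.4% for a biopsy and another oocyte and 85.5% for oocytes, so that the first 2 changed places.

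The spread within each group crossed over with level. For abundant rows the median SD of log2 CPM was 0.32 among the 4 biopsies and 0.46 among the 4 oocytes, and the SD was the smaller in biopsies for 67.8% of rows. At 1 to 3 CPM the order was the reverse, 1.05 against 0.67, with 25.8% of rows less variable in biopsies, and at 30 to 100 CPM the groups were equal at 0.44. The biological coefficient of variation from edgeR was 28.2% against 39.2% for abundant rows and 77.8% against 52.6% over all rows tested. Leaving out number 2 gave 0.28 against 0.37 for abundant rows, and leaving out number 3 gave 0.28 against 0.39. With library totals it was 0.31 against 0.40. No test was made across rows, which share their libraries.

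**Figure D5:**
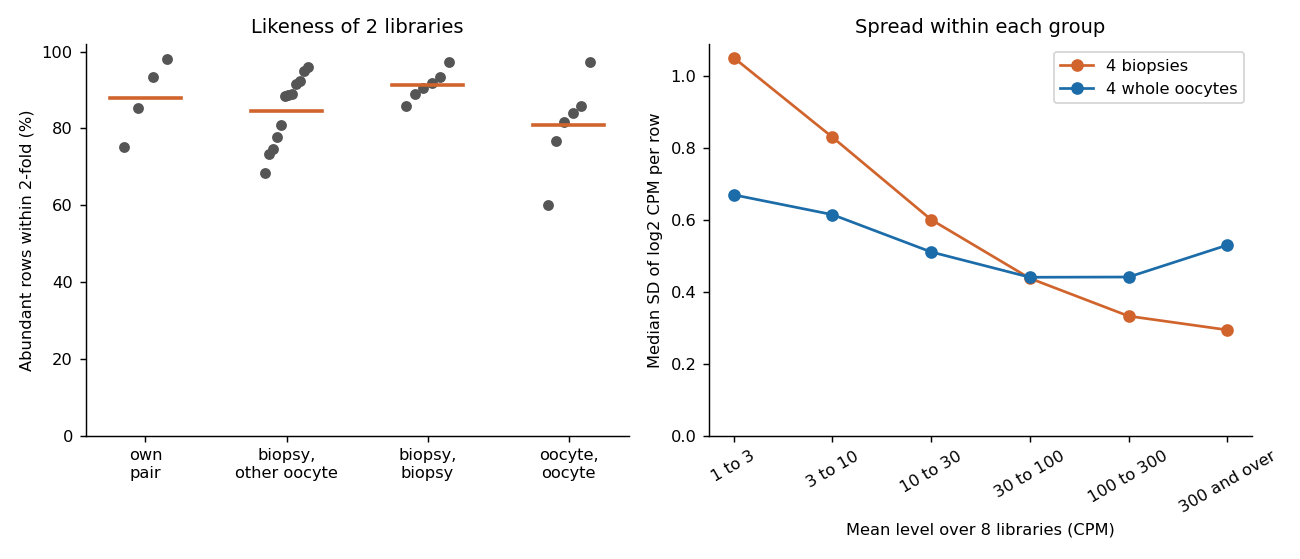
Left, percent of abundant rows within 2-fold between 2 libraries, by kind of pairing, with each pairing as a point and the mean as a bar (91.3% for biopsies, 80.9% for oocytes). Right, median SD of log2 CPM per row among the 4 biopsies and among the 4 oocytes by mean level, with lines that cross near 30 to 100 CPM.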

How the data were processed

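Poly(A) RNA of 4 biopsies and 4 whole oocytes was made into cDNA with a SMART-Seq HT kit and into libraries with a Nextera XT kit, per the labels' protocols. The authors deposited raw counts per row; Trim Galore, cutadapt, STAR and featureCounts are named without versions per the submitters' processing notes, and no source used here gives the genome build, annotation or strand setting. Of 59051 rows 37247 had a count, and 18540 passed edgeR's filterByExpr. Names came from a RefSeq gene table, which matched 5258 of 7848 LOC rows, and Ensembl and NONCODE rows stay unnamed. The 24 value columns of the polar body table were not used.

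Rows were tested with edgeR 4.0.16 (R 4.3.3), TMM scaling, a robust quasi-likelihood fit, number as a block and Benjamini-Hochberg adjustment at 0.05 over all rows tested. The standard error is the log2 fold change over the square root of F. Same-number libraries deviated together (Pearson correlation across rows 0.182 to 0.289), against -0.313 to 0.208 for other numbers (mean -0.0724). Biopsy 6 with oocyte 16 (0.203) and biopsy 16 with oocyte 6 (0.208) exceeded the values of pairs 6 and 16, so this check does not tell those pairs apart, and the pairing rests on the titles. Single values per library were compared by exact two-sided sign flips over 4 pairs, where no p under 0.125 is possible, and by exact permutation over 70 assignments (smallest 0.0286). Log ratios per pair and SDs used a pseudocount of 0.5 CPM. Libraries of a group differed by far more than counting noise (chi-square per degree of freedom 50.3 to 267). No source used here says whether the oocytes came from different animals, and the p-values therefore cover the spread of these samples alone, which may be technical.

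Named rows were the 10 of smallest p in each direction among named abundant rows on the same side in all 4 pairs (4 and 7 qualified), members of the lists at 100 CPM or more, up to 8 per list, the 10 named rows of highest level, and 2 unnamed identifiers per direction. List members described at under 100 CPM, such as WARS, H2AFX, ZNF569 and SOHLH1, were outside this rule and were picked with their values known. The members and lists were chosen with earlier results of these data known. Alternatives were the fit without the replicate block, other scalings, filters and thresholds, DESeq2 1.42.0, limma-voom (limma 3.58.1), thinning to the smallest total, and each pair left out. The script was tested on simulated counts. No sequences are shown, since none were used here.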

Additional observations from a re-analysis of the deposited data

Results flagged for a closer look

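Of 98 sets of 4 libraries examined for a single library far from the other three, 7 held one, where chance gives about 1 in 20. They were SEPT11 in whole oocytes (509 CPM in oocyte 3), NELL1 in whole oocytes (401 CPM in oocyte 2), BCL2L10 in whole oocytes (3165 CPM in oocyte 3), COL4A3BP in biopsies (106 CPM in biopsy 3), PAPD7 in biopsies (114 CPM in biopsy 2) and TUG1 in biopsies (19.9 CPM in biopsy 16). The seventh was the summed level of the cumulus cell rows in whole oocytes, 176 CPM in oocyte 2. Their causes were not tested.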

How the results depend on the processing

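In the edgeR fit without the replicate block 0 rows were called, 1028 had an unadjusted p under 0.05 and 1240 abundant rows lay within 2-fold. With library totals 1758 of 2103 abundant rows (83.6%) lay within 2-fold, and with limma-voom 1618 of 2107 (76.8%). The difference of -1786 detected rows, at the smallest paired p, had an unpaired exact permutation p of 0.0286. With libraries thinned to the smallest total it was -1029, with an unpaired exact p of 0.257. Calls appeared without a filter on low counts (118 of 37247 rows, 9 abundant) and with DESeq2 (353 of 37247 rows, 12 abundant). The cause was not tested. With library totals 164 abundant rows stood above in every pair. At bounds of 50 and 200 CPM the counts were 215 and 53 above, 309 and 70 below, and 2471 and 699 within 2-fold. With a pair left out they ranged over 152 to 203 above, 199 to 781 below and 872 to 1406 within 2-fold (872 without pair 16). The counts above and below were then taken over fewer pairs, which is a weaker rule. Calls stayed at 0 in each of these fits.

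The share of oocyte rows detected in the own biopsy was 82.5%, and 79.2%, 85.1% and 84.2% at 1 count, at 10 counts and after thinning. The 120 rows absent from biopsies became 238 and 71 at 1 and 10 counts and 97 after thinning. The 5 reverse rows became 28 and 7 at 1 and 10 counts and 18 after thinning. With a pair left out, where fewer libraries have to agree, these sets held 297 to 353 and 20 to 66 rows. The median SD of oocytes was 0.37 to 0.51. Without pair 2 the NONCODE difference turned to 0.316 and the cumulus difference to 7.31 CPM. Over the leave-outs these ranged from -0.937 to 0.316 and from -40.9 to 7.31. Of 252 refits of 21 named rows 244 kept their direction and side of the threshold, 8 gained a call and 0 changed sign. Alternatives at 1 count and 10 counts for the absent rows were chosen after seeing the data. With 4 pairs, a 2-fold bound could be settled for few rows under 10 CPM.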
